A study of Homo sapiens with 6 samples.

Results

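Transcripts of 10 genes that mark or drive the epithelial-mesenchymal transition were followed in A549 cells, a cell line established from a human lung adenocarcinoma, with and without DAMTC, the code name under which the labels give the compound. The genes were CDH1, CDH2, VIM, SNAI2, ZEB1, ZEB2, TWIST1, FN1, EPCAM and S100A4. All probes listed with 1 of these symbols in the platform annotation were taken, which gave 17 of the 48803 probes on the array, and each probe was read by itself. The array names 18665 genes in all. Control A549 cells (n = 3 arrays) were set against A549 cells given 160 µg/ml DAMTC for 24 h (n = 3 arrays), to find transcripts whose level differs after treatment. For the controls, vehicle and culture time are not given in the sources used here, and the triplicates are called biological without separate cultures being named, and the spread that p-values measure here may be a technical one. All cells were of 1 line, and the controls carried every mutation of that line.

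In the epithelial-mesenchymal transition, epithelial cells loosen their contacts and take on a motile, fibroblast-like state. E-cadherin, the product of CDH1, and EPCAM hold epithelial cells together, while N-cadherin (CDH2), the intermediate filament vimentin (VIM), the matrix protein fibronectin (FN1) and the calcium-binding protein S100A4 are known for the mesenchymal side. The transcription factors SNAI2, ZEB1, ZEB2 and TWIST1 bind E-box motifs in the DNA, and SNAI2 and the ZEB factors are known as repressors of CDH1. A549 cells are known to carry epithelial keratins together with vimentin before any treatment.

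The arrays were Illumina Human-6 bead arrays, on which a probe is read as the mean brightness of many beads. Per array, 17357 to 17835 probes were detected in controls and 16329 to 17058 with DAMTC. Detected means a detection p-value under 0.05 against the negative-control beads. The 17 probes were read from 25 to 58 beads an array, and the standard error over beads was 2.65% to 7.54% of the intensity. That intensity includes background, so for dim probes the bead error is a larger share of the signal above background. The n of the tests is the number of arrays, not of beads. The 6 arrays lay on 1 chip, with the controls in the first positions and the DAMTC arrays in the last, so position and treatment cannot be told apart. Control replicate 1 stood apart from the other controls. On the second principal component, which held 22.7% of the variance, it lay at 68.0, against -43.1 and -24.3 for control replicates 2 and 3. For the 17 probes, calls that were gained or lost without it are given below. For lists of other genes the total number of calls without it is given. Of 11 markers of A549 or epithelial cells on the array, 10 were detected on every array, among them KRT7, KRT8, KRT18 and KRT19, while AKR1C1 was detected on none. The summed bead intensity of these markers, before normalisation, was 172175 to 227134 in controls and 112486 to 190540 with DAMTC. After normalisation 10 of them were tested, each by its tested probe of highest mean level, and 0 passed at an adjusted p under 0.05 (limma). Their median log2 difference, DAMTC minus control, was -0.26. Other tested probes are not in this count. Those of AKR1C2 differed by -3.00 and -0.75, against -0.42 on the probe used. Those of NQO1, ALDH1A1 and TXNRD1 differed by -0.01, -0.25 and -0.89, against -0.21, -0.31 and -1.02. Of 9 fibroblast markers, PDGFRA was detected on all arrays and COL1A2, COL3A1, LUM and PDGFRB on none, with a summed intensity of 1368 to 1517 in controls and 1250 to 1384 with DAMTC. Of 7 blood cell markers, CD14 and CD68 were detected on all arrays and PTPRC, CD3E and HBB on none, with sums of 2458 to 3467 and 3415 to 6117. The blood marker HBA1, a haemoglobin gene, was detected on no control array and on all 3 DAMTC arrays, at least 1.79-fold higher (adjusted p = 0.0342, limma). The other blood markers tested did not pass and differed in sign. CD14 differed by -0.80 (adjusted p = 0.102, limma) and CD68 by 1.10 (adjusted p = 0.0614, limma), with 0.30 on a second CD68 probe. Of 6 endothelial markers, PECAM1 was detected on all arrays and CDH5, VWF and CLDN5 on none, with sums of 839 to 945 and 787 to 865. All these sums are of bead intensities as deposited, neither background-subtracted nor scaled. The deposited series matrix subtracts 119 to 141 from each probe, so the fibroblast and endothelial sums are mostly background. The subtracted value was 119 on DAMTC replicate 1 and 138 to 141 on the other arrays. Near background, deposited bead intensities of DAMTC replicate 1 therefore read low beside those of the other arrays, here and below. The part of these markers in the results below was not tested. In bulk RNA, fewer cells of a kind and less RNA in each cell cannot be told apart.

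Promoter windows of 6 of the 10 genes were found in the RefSeq promoter table of GRCh38.p14, each covering 250 bases before to 50 bases after a start site. None was found for CDH1, SNAI2, TWIST1 or EPCAM, so the promoters of these genes were not searched. Windows of CDH2 (1 of its 2 starts in the table), VIM and S100A4 are shown because their products stand for the mesenchymal side and their probes were detected on every array. The E-box searched for was CACCTG on either strand (CAGGTG when read on the other), a form to which SNAI2 and the ZEB factors are known to bind, and it is in capitals wherever it occurs.
CDH2, chr18:28177081-28177380, minus strand: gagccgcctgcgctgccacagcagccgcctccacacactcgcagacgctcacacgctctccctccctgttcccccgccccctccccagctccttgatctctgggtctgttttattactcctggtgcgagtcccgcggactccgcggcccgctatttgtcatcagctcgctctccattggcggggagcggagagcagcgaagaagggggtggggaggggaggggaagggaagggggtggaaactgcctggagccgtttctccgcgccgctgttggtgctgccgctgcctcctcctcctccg
VIM, chr10:17227991-17228290, plus strand: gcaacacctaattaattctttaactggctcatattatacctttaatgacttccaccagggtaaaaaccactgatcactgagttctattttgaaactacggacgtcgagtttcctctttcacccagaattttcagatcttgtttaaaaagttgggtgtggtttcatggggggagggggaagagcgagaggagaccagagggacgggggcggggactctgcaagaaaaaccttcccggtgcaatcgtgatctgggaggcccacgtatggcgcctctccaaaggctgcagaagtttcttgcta
S100A4, chr1:153545757-153546056, minus strand: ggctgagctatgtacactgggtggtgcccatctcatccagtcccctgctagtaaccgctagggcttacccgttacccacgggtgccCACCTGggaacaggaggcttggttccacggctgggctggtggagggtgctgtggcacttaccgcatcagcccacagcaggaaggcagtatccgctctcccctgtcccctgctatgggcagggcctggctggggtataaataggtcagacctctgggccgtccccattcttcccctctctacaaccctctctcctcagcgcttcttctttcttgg
S100A4 held 1 such E-box, which began 164 bases before the start site, and the VIM window and both CDH2 windows held none. Of 35116 promoter windows of this length in the table, 20.6% held the motif. Among the 13 windows of the 6 genes 3 did, 1 of S100A4 and 2 of the alternative starts of ZEB1. A match is a description of the letters in the window and shows no binding.

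With DAMTC, CDH1 fell 3.12-fold and 1 of the 2 SNAI2 probes rose 3.14-fold, while CDH2, VIM, ZEB2, TWIST1, EPCAM and S100A4 did not pass the test. ZEB1 and FN1 were too dim to be tested. Of the 17 probes, 12 were detected on at least 3 of the 6 arrays and were tested, covering 8 of the genes. Among these 12, 1 probe was higher and 1 lower with DAMTC at an adjusted p under 0.05 (limma, Benjamini-Hochberg over all 17009 probes tested), and 10 did not pass. That is 16.7% of the members, where 23.4% of all probes tested passed, 11.7% higher and 11.6% lower. With 12 probes, a share this near that of all probes is no result about the members. The groups did not overlap for 3 of the 12 probes, or 25%, against 40.1% of all probes tested. The median log2 difference was 0.35 over the 12 probes and -0.01 over all probes tested. Levels below are log2 bead intensities after background correction and quantile normalisation, and differences are DAMTC minus control on that scale.

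**Figure D1:**
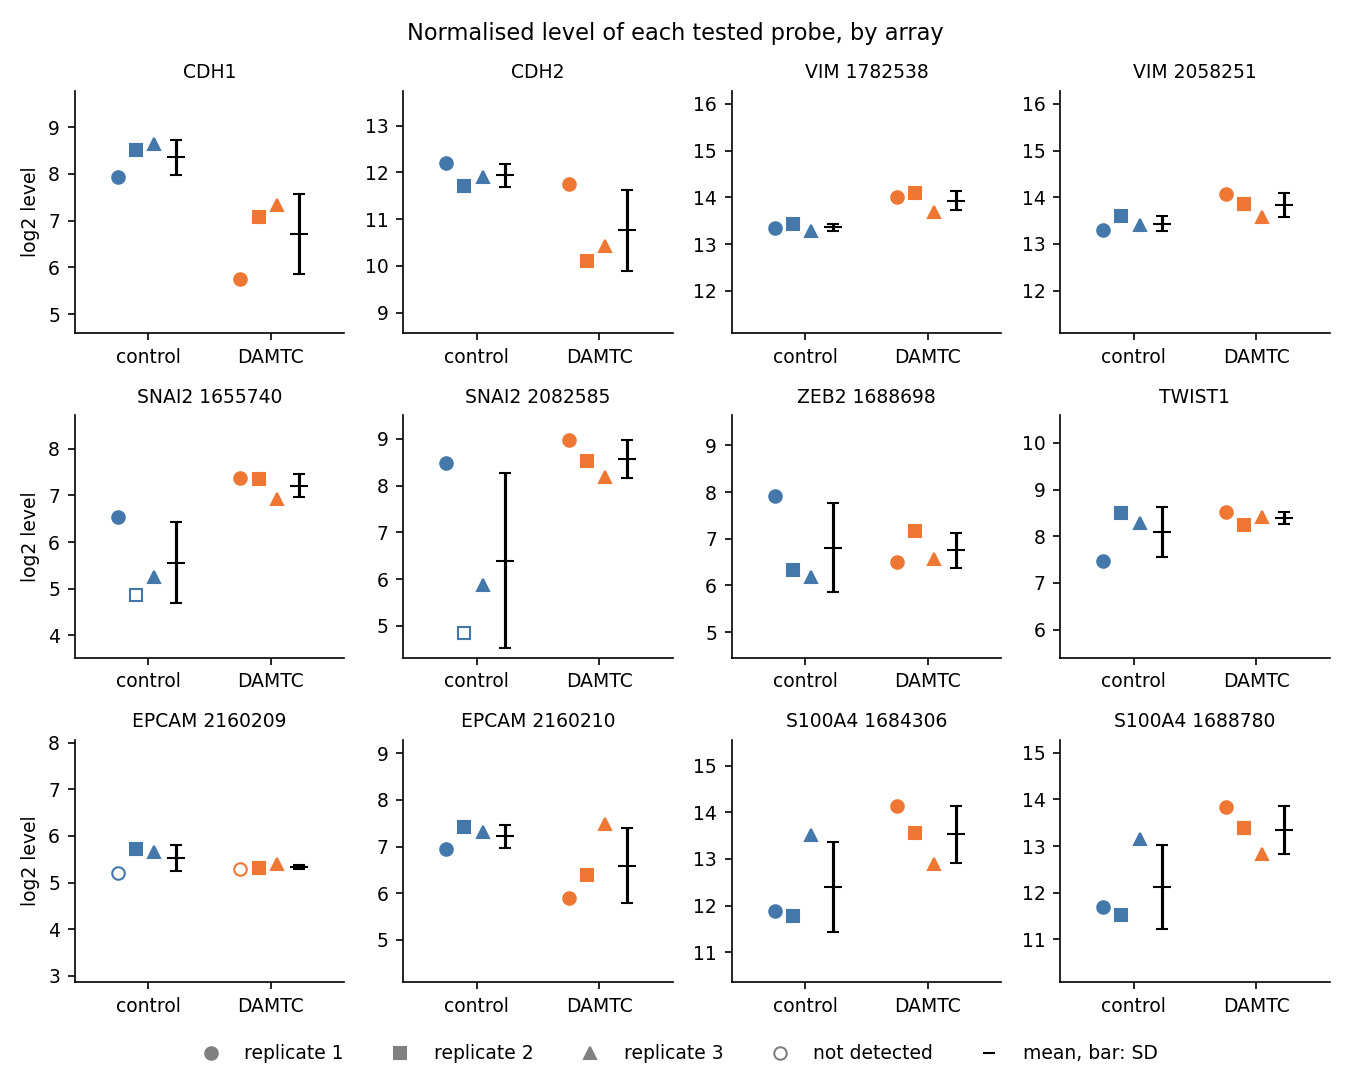
Log2 level (vertical axis, each panel spanning the same number of log2 units) of the 12 tested probes on each array, control in blue and DAMTC in orange, with the mean and SD beside the points and open symbols for arrays on which the probe was not detected. For CDH1 all 3 DAMTC arrays lie below all 3 controls, and for SNAI2 control replicate 1 lies far above control replicates 2 and 3.

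CDH1, the epithelial cadherin, read 7.93, 8.51 and 8.64 in control replicates 1 to 3 and 5.74, 7.07 and 7.34 in DAMTC replicates 1 to 3. Every DAMTC array was below every control, and DAMTC replicate 1 was the lowest. The single probe, ILMN_1770940, was detected on all 6 arrays, with a detection p-value of 0.0211 on DAMTC replicate 1. Before correction its bead intensity was 377, 524 and 613 in controls and 150, 249 and 269 with DAMTC. The means were 8.36 ± 0.38 and 6.72 ± 0.86 (SD, n = 3), and the difference was -1.64 ± 0.42 (SE), with a 95% interval of -2.59 to -0.68 and adjusted p = 0.0230 (limma). The exact two-sided permutation test on this probe alone gave p = 0.1, and no smaller value is possible with 3 arrays a group. The call was lost without control replicate 2 (adjusted p = 0.0528), control replicate 3 (adjusted p = 0.0759) or DAMTC replicate 1 (adjusted p = 0.0528), and the difference lay between -1.95 and -1.15 over the 6 fits that left out 1 array. Without background correction it was -0.96, still past the threshold (adjusted p = 0.0320).

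EPCAM, an epithelial adhesion molecule, had a pair of probes and neither passed. ILMN_2160210 read 6.95, 7.42 and 7.30 in controls and 5.90, 6.40 and 7.48 with DAMTC. DAMTC replicates 1 and 2 lay below all controls and DAMTC replicate 3 above them all, so the groups overlapped. The difference was -0.63 ± 0.39 (SE), with an interval of -1.51 to 0.26 and adjusted p = 0.289. ILMN_2160209 was near background, with bead intensities of 156, 181 and 181 in controls and 137, 160 and 163 with DAMTC, and was detected on 2 of 3 arrays in each group. It differed by -0.19 ± 0.24 (SE; interval -0.74 to 0.36; adjusted p = 0.625). Both probes kept a negative difference in all alternatives run, from -1.07 to -0.28 for the first and from -0.47 to -0.06 for the second.

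CDH2, the mesenchymal cadherin, read 12.21, 11.70 and 11.89 in controls and 11.75, 10.10 and 10.42 with DAMTC. DAMTC replicates 2 and 3 lay below every control, while DAMTC replicate 1 lay among the controls. The means were 11.94 ± 0.25 and 10.76 ± 0.87 (SD, n = 3), a difference of -1.18 ± 0.41 (SE) with an interval of -2.11 to -0.24, and it did not pass (adjusted p = 0.0710). Without DAMTC replicate 1 the difference was -1.67 and passed (adjusted p = 0.0117), as it did with median scaling of the arrays instead of quantile normalisation (-1.38, adjusted p = 0.0301) and with array weights (adjusted p = 0.0128). Without DAMTC replicate 2 it was -0.85 (adjusted p = 0.232). The order of the DAMTC arrays was not the same for both cadherins, since DAMTC replicate 1 was the lowest of its group for CDH1 and the highest for CDH2.

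VIM, which encodes vimentin, had a pair of bright probes with positive differences that did not pass. ILMN_1782538 read 13.34, 13.43 and 13.29 in controls and 13.997, 14.09 and 13.69 with DAMTC. All 3 DAMTC arrays were above all 3 controls. The difference was 0.57 ± 0.23 (SE), 1.49-fold, with an interval of 0.05 to 1.10 and adjusted p = 0.109, and it passed without background correction (adjusted p = 0.0331) and with array weights (adjusted p = 0.0364). ILMN_2058251 read 13.30, 13.60 and 13.40 in controls and 14.07, 13.86 and 13.57 with DAMTC. Here DAMTC replicate 3 lay below control replicate 2. The difference was 0.40 ± 0.24 (SE; interval -0.15 to 0.95; adjusted p = 0.280). For both VIM probes the difference was positive in every alternative run.

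S100A4, the calcium-binding protein also known as fibroblast-specific protein, was likewise read by a pair of probes. ILMN_1684306 read 11.89, 11.78 and 13.51 in controls and 14.12, 13.56 and 12.90 with DAMTC, and ILMN_1688780 read 11.70, 11.52 and 13.15 in controls and 13.84, 13.39 and 12.82 with DAMTC. On both probes control replicate 3 stood with the DAMTC arrays, above DAMTC replicate 3. The differences were 1.13 ± 0.49 (SE; interval 0.01 to 2.25; adjusted p = 0.134) and 1.23 ± 0.45 (SE; interval 0.20 to 2.26; adjusted p = 0.0832). Neither passed, and the probes differed by 0.10 in their log2 difference. Without control replicate 3 both passed, at 1.69 (adjusted p = 0.0239) and 1.74 (adjusted p = 0.0160). With array weights the differences shrank to 0.29 and 0.47. The spread among the controls, 1.73 and 1.63 from lowest to highest, was larger than the difference between the groups.

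FN1, the fibronectin gene, was not detected by any of its 3 probes on any array. The bead intensities of ILMN_1675646 were 139, 138 and 150 in controls and 109, 132 and 146 with DAMTC, with detection p-values from 0.162 to 0.841. ILMN_1778237 read 134 to 155 in controls and 114 to 139 with DAMTC, and ILMN_2366463 read 135 to 151 and 129 to 149. At the precision of these arrays no FN1 signal could be told from background with these probes in either group, and no fold is given. The annotation lists each probe under a particular FN1 transcript record. Whether the probes cover all FN1 transcripts was not tested, so absence of FN1 RNA is not shown.

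**Figure D2:**
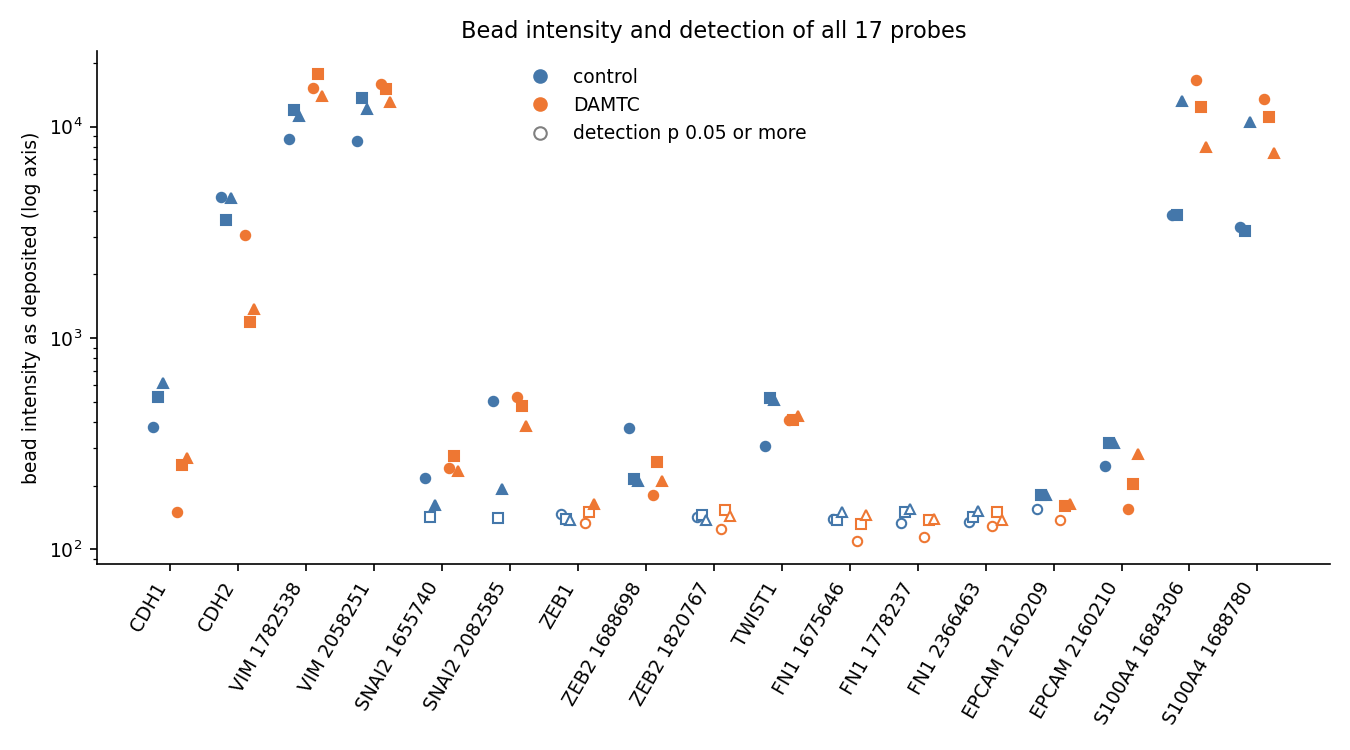
Bead intensity as deposited (vertical log axis, neither background-subtracted nor scaled) of all 17 probes on each array, control in blue and DAMTC in orange, circles, squares and triangles for replicates 1 to 3, and open symbols where the detection p-value was 0.05 or more. All 3 FN1 probes, the ZEB1 probe and 1 ZEB2 probe lie near background, with 1 detected value among them, that of ZEB1 on DAMTC replicate 3.

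SNAI2, also called SLUG, is a zinc finger repressor of CDH1, and its level differed more among the control arrays than among the DAMTC arrays. ILMN_1655740 read 6.53, 4.87 and 5.26 in controls and 7.36, 7.35 and 6.92 with DAMTC. The DAMTC arrays were all above the controls, and the probe was not detected on control replicate 2. The means were 5.56 ± 0.87 and 7.21 ± 0.25 (SD, n = 3), a difference of 1.65 ± 0.41 (SE) with an interval of 0.72 to 2.59 and adjusted p = 0.0201. With each array floored at its lowest detected signal (added after the data were seen) the difference was 1.52 (adjusted p = 0.0274). The call was lost without control replicate 3 (adjusted p = 0.0685), DAMTC replicate 1 (adjusted p = 0.0731) or DAMTC replicate 2 (adjusted p = 0.0731). Without control replicate 1 the difference was 2.14 (adjusted p = 5.79e-04), and without background correction 0.70 (adjusted p = 0.0433).

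The other SNAI2 probe, ILMN_2082585, read 8.48, 4.83 and 5.87 in controls and 8.99, 8.52 and 8.19 with DAMTC. Control replicate 1 lay between DAMTC replicates 2 and 3, so the groups overlapped, and control replicate 2 was again not detected. Controls spanned 3.65 on the log2 scale and DAMTC arrays 0.80. The difference was larger than that of the first probe, 2.17 ± 0.78 (SE), but its interval of 0.42 to 3.93 was wider and it did not pass (adjusted p = 0.0748). Without control replicate 1 it was 3.22 and passed (adjusted p = 4.29e-04), and without control replicate 2 it was 1.39 (adjusted p = 0.176). It also passed with array weights (2.66, adjusted p = 5.70e-04). On both probes control replicate 1 was the highest control and control replicate 2 the lowest.

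ZEB2, a zinc finger and homeodomain repressor of epithelial genes, was measured by ILMN_1688698 on all 6 arrays. It read 7.92, 6.34 and 6.18 in controls and 6.50, 7.18 and 6.57 with DAMTC. The groups overlapped, and control replicate 1 was the highest of all 6 arrays, as it was the highest control for SNAI2. The difference was -0.06 ± 0.45 (SE; interval -1.09 to 0.96; adjusted p = 0.939), and 0.49 (adjusted p = 0.204) without control replicate 1. The remaining ZEB2 probe, ILMN_1820767, is annotated to another transcript record than the first. It was not detected on any array, with bead intensities of 124 to 153. ZEB1, its close relative, was detected by ILMN_1762231 on DAMTC replicate 3 alone, with intensities of 147, 138 and 138 in controls and 132, 149 and 164 with DAMTC, and was not tested. After background correction and normalisation it read 4.99, 4.80 and 4.77 in controls and 5.16, 5.03 and 5.41 with DAMTC. On that scale the groups did not overlap, but all values lay near background.

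TWIST1, a basic helix-loop-helix factor, read 7.48, 8.50 and 8.28 in controls and 8.51, 8.24 and 8.42 with DAMTC. The DAMTC arrays lay close together and close to control replicates 2 and 3, and control replicate 1 was the lowest array. The difference was 0.31 ± 0.30 (SE; interval -0.38 to 0.996; adjusted p = 0.524), 0.00 without control replicate 1 (adjusted p = 0.998) and -0.03 with median scaling. A fall in TWIST1 beyond 0.38 or a rise beyond 0.996 on the log2 scale lies outside the interval of the main fit.

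**Figure D3:**
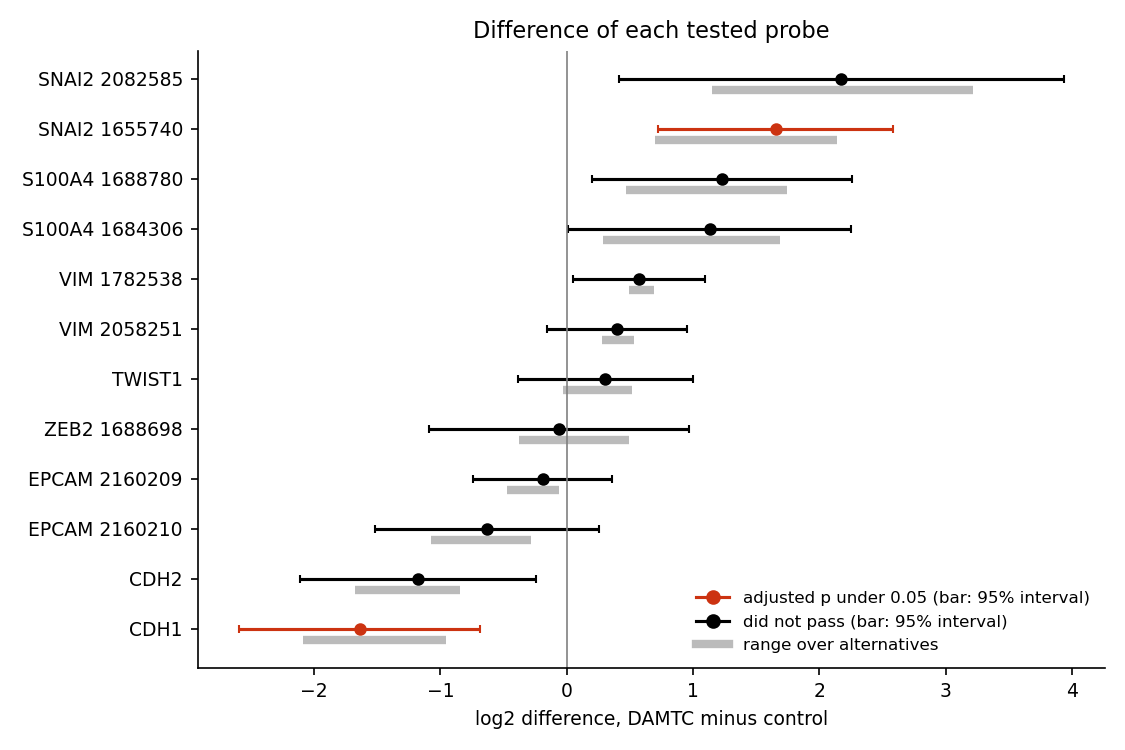
Log2 difference, DAMTC minus control (horizontal axis), of the 12 tested probes with 95% intervals, red for the 2 that passed at an adjusted p under 0.05, and grey bars for the range over the alternative settings run. The intervals of CDH1, CDH2, both SNAI2 probes, both S100A4 probes and 1 VIM probe do not include 0 before adjustment, and the grey bars of ZEB2 and TWIST1 cross 0.

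Wherever a pair of probes of 1 gene was tested, both differences had the same sign, though 1 of the 8 probes passed. Their log2 differences lay 0.10 apart for S100A4, 0.17 for VIM, 0.44 for EPCAM and 0.52 for SNAI2. Detection of the member probes was nearly equal in both groups, with 33 of 51 values detected in controls and 36 of 51 with DAMTC. Over all probes, every DAMTC array detected fewer than every control array. By direction, CDH1 and EPCAM on the epithelial side and CDH2 on the mesenchymal side had negative differences, and VIM, S100A4 and SNAI2 had positive ones, but of these only CDH1 and 1 SNAI2 probe passed. The signs of the CDH1, EPCAM, CDH2, VIM, S100A4 and SNAI2 differences were kept with median scaling and with the deposited background-subtracted values, which put the median log2 difference of all tested probes at -0.21 and -0.15 against -0.01.

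Other genes of the same programme were read through 9 lists, each gene by its tested probe of highest mean level. Of 99 listed entries tested, 7 were higher, 9 lower and the rest did not pass, which is 16.2% that passed, where 25.2% of the 10779 genes so represented passed, 12.3% higher and 12.9% lower. The count of 16 was 25 without control replicate 1, 10 when either control replicate 3 or DAMTC replicate 1 was left out, and 8 when DAMTC replicate 2 was. Other tested probes of the same gene are not in these counts, and some lay farther from 0 and some nearer. Among genes that did not pass, CTNNB1 differed by 0.29 on the probe used and by 1.17 and 0.93 on others. TPM1 differed by -0.50 and by -0.60, -1.31 and -1.58, CD24 by -0.30 and by 1.23, and DSP by -0.67 and by -0.32.

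Among other factors that induce the transition, 9 of 17 on the array were tested, 2 fell, 0 rose and 7 did not pass, with a median log2 difference of -0.17 (all genes -0.04). The sign of that median rested on single arrays: it was 0.13 without control replicate 2, 0.054 without DAMTC replicate 3, -0.35 without control replicate 1 and -0.42 without DAMTC replicate 1. FOXQ1, a forkhead factor, read 9.82, 10.88 and 11.11 in controls and 8.19, 7.43 and 7.25 with DAMTC, a fall of 7.91-fold (difference -2.98 ± 0.39 SE, adjusted p = 0.00120). SOX4, an SRY-related factor, read 9.24, 8.54 and 9.23 in controls and 6.18, 6.53 and 5.61 with DAMTC, 7.43-fold lower (-2.89 ± 0.32 SE, adjusted p = 6.24e-04). For both, all DAMTC arrays lay more than 1 log2 unit below the lowest control, and both passed in all 18 alternatives, with differences of -2.40 and -1.74 without background correction. SNAI1, the close relative of SNAI2, was too dim to be tested.

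Among factors and splicing regulators of the epithelial state, 8 of 16 on the array were tested, 3 rose, 2 fell and 3 did not pass, with a median of -0.17 (-0.39 without control replicate 1 and -0.060 without control replicate 3). The GRHL1 probe ILMN_1795767, for a grainyhead factor of epithelia, was detected on 0 of 3 control arrays (4.94 ± 0.17, SD, n = 3) and on all 3 DAMTC arrays (7.64 ± 0.15), at least 5.17-fold higher (adjusted p = 2.42e-04). Its fitted log2 difference was 2.70, and 1.18 without background correction. Of the other GRHL1 probes, neither was tested: ILMN_1651286 was detected on 1 array of each group, with means of 5.04 in controls and 5.18 with DAMTC, and ILMN_1769934 on 0 arrays. TFCP2L1, a related factor, rose 2.94-fold (1.55 ± 0.29 SE, adjusted p = 0.00573; 0.75 without background correction) and KLF4, a Kruppel-like factor, 2.17-fold (adjusted p = 0.0224), while a second KLF4 probe differed by 0.51 (adjusted p = 0.313). RBM47, an RNA-binding protein, fell 2.96-fold (-1.57 ± 0.27 SE, adjusted p = 0.00421) and ELF3, an ETS factor of epithelia, 2.39-fold (adjusted p = 0.0396). The ELF3 and KLF4 calls were lost in 10 and 8 of 18 alternatives, among them those without control replicate 2 or 3, those without any 1 DAMTC array, and the stricter threshold of 0.01.

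Among catenins and adherens junction partners, which tie cadherins to actin, 16 of 18 on the array were tested, 2 fell, 1 rose and 13 did not pass, with a median of 0.20 (0.088 without control replicate 2 and -0.048 with median scaling). NECTIN3, a nectin of the same junctions, fell 1.84-fold (-0.88 ± 0.24 SE, adjusted p = 0.0301), and its second probe differed by -1.04 (adjusted p = 0.0203). ACTN1, an actin cross-linker, also fell 1.84-fold (adjusted p = 0.0322). CBLL1, a ubiquitin ligase known to bind E-cadherin, rose 2.16-fold (1.11 ± 0.23 SE, adjusted p = 0.00844), with 1.33 (adjusted p = 0.00489) on its second probe. The NECTIN3 and ACTN1 calls were each lost in 6 of 18 alternatives. Among other cadherins, 5 of 17 were tested and 0 passed (limma), the smallest p being that of CDH15 (-1.12 ± 0.54 SE, adjusted p = 0.174, detected on 2 control arrays and 1 DAMTC array; -1.82 and adjusted p = 0.00150 without control replicate 1). Among desmosome proteins, 10 of 15 were tested, with PKP4, a plakophilin, lower (-1.18 ± 0.32 SE, adjusted p = 0.0297; second probe -0.26, adjusted p = 0.454) and PNN, found at desmosomes and in nuclear speckles, higher (1.11 ± 0.26 SE, adjusted p = 0.0160). These calls were lost in 7 and 5 of 18 alternatives.

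Among TGF-beta ligands, receptors and mediators, the pathway best known for inducing the transition, 17 of 25 on the array were tested, 2 fell, 2 rose and 13 did not pass, with a median of -0.05 (-0.43 without control replicate 2 and 0.032 without DAMTC replicate 1). TGIF1, a homeodomain co-repressor of SMAD proteins, read 12.42, 12.54 and 12.34 in controls and 9.79, 9.40 and 9.55 with DAMTC, 7.23-fold lower (-2.85 ± 0.23 SE, adjusted p = 1.94e-04), and its second probe differed by -2.85 (adjusted p = 1.84e-04). SMAD3, which carries the TGF-beta signal to the nucleus, read 12.28, 12.57 and 11.49 in controls and 10.35, 10.16 and 10.61 with DAMTC, 3.33-fold lower (-1.74 ± 0.32 SE, adjusted p = 0.00528). The groups did not overlap for either gene, and both passed in all 18 alternatives. SKI, a SMAD co-repressor, rose 1.85-fold (adjusted p = 0.0361) and SMURF1, a ubiquitin ligase of the pathway, 1.68-fold (adjusted p = 0.0447), and these calls were lost in 10 and 13 of 18 alternatives. With median scaling the list had 0 genes higher and 4 lower.

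Other mesenchymal-state genes, other epithelial surface genes and other S100 proteins gave 0 calls (limma) among 16, 11 and 7 tested, with medians of -0.20, -0.33 and 0.27. The mesenchymal median was -0.39 without DAMTC replicate 1 and -0.097 without control replicate 1. The epithelial surface median was -0.50 without control replicate 1 and -0.17 without control replicate 2. The S100 median was 0.13 when control replicate 1 was left out, 0.62 when DAMTC replicate 3 was, and -0.18 with array weights. MYLK, a myosin light chain kinase, had the smallest p of the first list (-0.74 ± 0.26 SE, adjusted p = 0.0736). SCNN1A, an epithelial sodium channel subunit, had that of the second (-1.23 ± 0.40 SE, adjusted p = 0.0559), and S100A10 that of the third (0.51 ± 0.33 SE, adjusted p = 0.310). SCNN1A passed in 5 of 18 alternatives: when control replicate 1 (-1.36, adjusted p = 0.0396) or DAMTC replicate 3 (-1.68, adjusted p = 0.0166) was left out, with median scaling (-1.52, adjusted p = 0.0213), with the deposited values (-1.73, adjusted p = 0.0300) and with array weights (-1.03, adjusted p = 0.0375). MYLK passed with median scaling (-1.06, adjusted p = 0.0179) and with the deposited values (-1.10, adjusted p = 0.0340). At an unadjusted p under 0.05 these lists held 1, 2 and 0 genes, and that of other cadherins 0. Without control replicate 1 these lists gave 1, 3 and 0 calls, all lower.

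**Figure D4:**
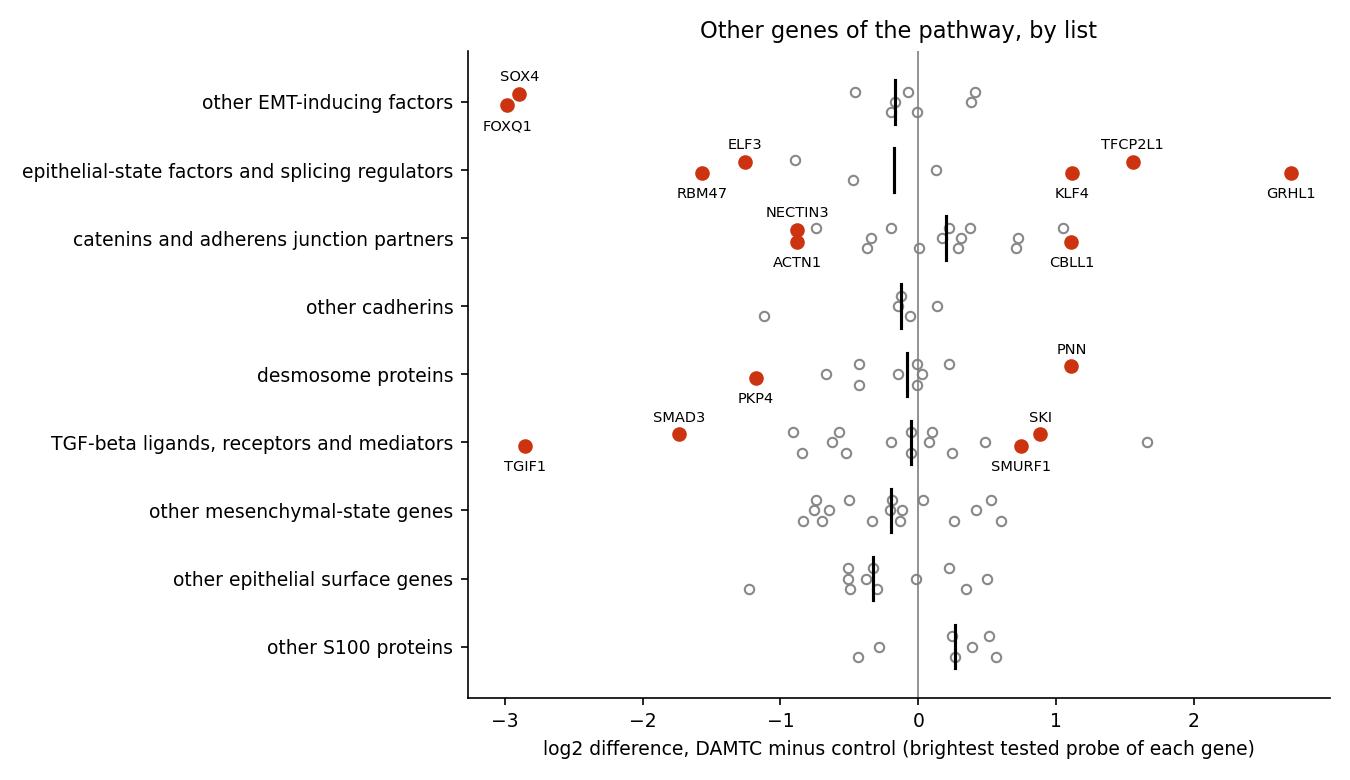
Log2 difference, DAMTC minus control (horizontal axis), of the tested genes of each list, filled red and named where the adjusted p was under 0.05, open grey otherwise, with a black line at each list's median. FOXQ1, SOX4, TGIF1 and GRHL1 lie farthest from 0, and the lists of other cadherins, mesenchymal-state genes, epithelial surface genes and S100 proteins hold no red point.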

How the data were processed

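Bead intensities on a linear scale, detection p-values, bead numbers and bead standard errors of 6 arrays were taken from the deposited non-normalized table, per the file headers. The authors summarised beads with BeadStudio, per the submitters' processing notes, which give no version. The deposited table is named non-normalized, and its values lie well above 0 on every array. Detection p-values move in steps of 1 in 759. The deposited series matrix intensities were a straight line of the same values, after subtraction of 119 to 141 and scaling (column medians 10.9, 9.34, 8.59, 8.99, 8.70 and 9.17 for control replicates 1 to 3 and DAMTC replicates 1 to 3), and served as an alternative, floored at 16.

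The nec function of limma 3.58.1 (R 4.3.3) corrected the intensities (background from the detection p-values, offset 16), which were then quantile normalised and put on the log2 scale. 1 probe ID on a pair of rows was averaged. Of 48803 probes, 27578 had 1 gene symbol, 13 several and 21212 were not listed. 27541 were matched to RefSeq by Entrez ID, and 0 symbols changed. Probes detected at p under 0.05 on at least 3 arrays, named or not, were fitted in lmFit and eBayes without a replicate block, and a probe passed at adjusted p under 0.05 (Benjamini-Hochberg). Where no array of a group detected a probe, it has a fold written "at least", against the higher of each array's lowest detected signal and its own value. The path was also run on simulated intensities, and the outcome of that run is not reported here.

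The members and gene lists were chosen with earlier results of these data known. Named are all member probes and, per list, up to 3 genes past the threshold with the largest difference, separated groups and detection on all arrays of the higher group, or else the gene of smallest p, with other genes where a count of 5 or fewer is spelled out. Alternatives covered background, normalisation, the deposited values, the filter, the feature, the moderation of variances, array weights, the block, each array left out, the thresholds and, chosen after seeing the data, a floor at the lowest detected signal.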

Additional observations from a re-analysis of the deposited data

How the results depend on the processing

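The number of probes that passed, 3973 in all, was 6848 with array weights, 2324 with the replicate block, 1872 at adjusted p under 0.01, and 2310 to 5426 when 1 array was left out. Of the member probes, 2 passed, against 5 with array weights, 1 with detection on all 6 arrays or 1 probe per gene, 0 with no filter or at adjusted p under 0.01, and 1 to 3 when 1 array was left out. With no filter 3247 of 48803 probes passed and 8229 had an unadjusted p under 0.05, and CDH1 and SNAI2 then had adjusted p = 0.0887 and 0.0780 in limma. Of the list genes, 16 passed, against 32 with array weights, 7 with the replicate block, 8 at adjusted p under 0.01, and 8 to 25 when 1 array was left out. Same-numbered control and DAMTC arrays deviated from their group means with correlations of -0.43, -0.42 and -0.20. Differently numbered arrays ranged from -0.28 to 0.50, the highest being control replicate 1 with DAMTC replicate 2. Deviations within each group must cancel out, so these correlations cannot show whether arrays of 1 number shared a culture. The block moved the SNAI2 probe ILMN_2082585 past the threshold (adjusted p = 0.0430, limma) and the member count to 3. ZEB2 changed sign with array weights (0.45) and ranged from -0.38 to 0.49 when 1 array was left out, and TWIST1 changed sign with median scaling (-0.033). The causes were not tested. Among probes that passed, 50.2% were higher, against 30.6% under median scaling and 36.9% for the deposited values. Of 102 member values, 69 were detected at p under 0.05 and 60 at p under 0.01. Signals near background gave no value to test for ZEB1, FN1 and 1 ZEB2 probe.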
